A study of Homo sapiens with 18 samples.

Results

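The genes described here are 39 genes of DNA replication and S phase, taken by symbol from a list of licensing, replication fork and nucleotide synthesis genes, out of 60642 gene symbols in a table of RNA sequencing counts. All 39 were found and all passed the filter on low counts in each fit. The table holds 18 libraries of 2 human colorectal cancer cell lines, with 3 libraries in each of 6 groups. HT-29 iZEB1 is the HT-29 line with a construct from which doxycycline (DOX) induces ZEB1, a transcription factor that represses epithelial genes, and RepSox is a small molecule that blocks the TGF-β receptor kinase ALK5. The HT-29 iZEB1 cells received DOX and RepSox, DOX and the vehicle DMSO, RepSox alone, or DMSO alone, so that every HT-29 group carried the construct. SW620 cells received RepSox or DMSO, without DOX. The RepSox dose was 10 µM for 24 h. The DOX dose was 1 µg/ml, for 24 h in the sample labels and 48 h in the series' design text. A line without the construct given DOX was not analysed here, so effects of DOX and of ZEB1 cannot be told apart. The labels do not say whether the 3 replicates of a group were separate cultures. The p-values therefore set group differences against the spread of these libraries only, and that spread may be technical.

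Before a cell copies its DNA, the origin recognition complex (ORC), CDC6 and CDT1 place a ring of the proteins MCM2 to MCM7 on each origin, a step called licensing. At the start of S phase CDC45, the GINS complex and MCM10 turn that ring into the active helicase. DNA polymerases α, δ and ε then copy the strands with the sliding clamp PCNA and its loader, the RFC complex. Most of these genes are transcribed at the passage from G1 into S phase, where E2F factors released by the retinoblastoma protein activate them, and the group is often read as a sign of cells that are cycling. In bulk libraries, fewer cells in S phase and less RNA of these genes per cell cannot be told apart.

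Promoter sequences of the members are given first, since E2F sites are a known feature of many of these genes. RefSeq promoters (GRCh38.p14, 250 bases before to 50 after the annotated start) were available for 35 of the 39 members. The E2F letters searched for, on either strand and with overlapping matches each counted, were TTCCCGC, its variant TTCGCGC, the variant TTGCCGC and the variant TTGGCGC. They were found in 26 of 35 member promoters (74.3%) and in 13.1% of all 27305 promoters. They were in 40.5% of 37 promoters of other replication genes and in 37.0% of 27 promoters of mitosis genes, from separate lists. The letters TTTGAA or TTCGAA, which mark the cell cycle homology region of many mitotic promoters, were in 5.71% of member promoters, 77.8% of the mitotic promoters and 16.6% of all. CCAAT was in 57.1% of member promoters against 35.7% of all, and the GC box GGGCGG in 71.4% against 44.6%. All members are protein coding, while the set of all promoters was not filtered by gene type here. A match describes these letters and is not evidence of a bound factor.

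The sequences below run from 150 bases before to 20 bases after the RefSeq start, 5′ to 3′ on the gene's strand, with E2F letters in capitals. They are shown for the 3 genes with the largest change under RepSox in DOX-treated cells among those whose promoter held such letters. CDC6 is chr17:40287729-40287898 (plus strand), MCM3 is chr6:52284723-52284892 (minus strand) and MCM2 is chr3:127598261-127598430 (plus strand).
CDC6: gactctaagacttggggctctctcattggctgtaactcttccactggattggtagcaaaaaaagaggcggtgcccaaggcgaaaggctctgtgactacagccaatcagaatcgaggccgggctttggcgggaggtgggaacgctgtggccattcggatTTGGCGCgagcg
MCM3: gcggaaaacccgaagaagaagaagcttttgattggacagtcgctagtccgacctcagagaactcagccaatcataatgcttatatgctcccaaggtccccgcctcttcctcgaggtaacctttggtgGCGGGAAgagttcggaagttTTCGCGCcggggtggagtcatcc
MCM2: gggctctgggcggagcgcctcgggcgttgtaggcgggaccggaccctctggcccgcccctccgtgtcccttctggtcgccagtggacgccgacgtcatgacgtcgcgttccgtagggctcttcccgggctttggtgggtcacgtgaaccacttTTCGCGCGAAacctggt
In CDC6 the match begins at base 9 of the transcript, in MCM3 the matches begin 23 and 3 bases before the start, and in MCM2 overlapping matches on opposite strands begin at bases 4 and 7 of the transcript. No match was in the window of 300 bases for MCM10, ORC6, CDC45, POLD1, POLD2, PRIM2, FEN1, TK1 and RRM2. All of these but RRM2 rose with RepSox in DOX-treated cells, and MCM10 had the second largest rise of the members.

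The libraries held 36.5 to 39.8 M counts, and levels are given as CPM, counts scaled to the effective library size. Gene calls are from edgeR's quasi-likelihood test with Benjamini-Hochberg adjustment over all genes tested, at an adjusted p below 0.05. ZEB1, the induced gene, averaged 16 ± 1.39 CPM with DOX and RepSox, 378 ± 7.05 CPM with DOX and DMSO, 5.38 ± 0.347 CPM with RepSox alone and 8.55 ± 1.59 CPM with DMSO alone (SD, n = 3 each). Of 10 colon epithelial markers, 7 or 8 were above 1 CPM in every group. Their summed level was 4437 to 4866 CPM with DOX and DMSO, and 8744 to 10920 CPM in the other HT-29 groups. Fibroblast markers summed to at most 1.47 CPM in HT-29 iZEB1, with none of 8 above 1 CPM, and to 7.28 to 13.3 CPM in SW620, where LUM and PDGFRB were above 1 CPM. Of 6 leukocyte markers, LYZ and CD14 were above 1 CPM in HT-29 iZEB1. Their list summed to 1756 to 1782 CPM with DOX and DMSO, 1122 to 1393 CPM in the other HT-29 groups and at most 4.60 CPM in SW620, where LYZ alone was above 1 CPM. Of 6 endothelial markers, TEK and ESAM were above 1 CPM in HT-29 iZEB1 and PECAM1 in SW620, with sums of 39.5 to 67.4 CPM and 2.98 to 5.43 CPM. The part of these shifts in the results was not tested.

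The replication genes were low in HT-29 iZEB1 cells given DOX with DMSO, and close to the untreated level in cells given DOX with RepSox. Their summed level was 5545 ± 85.5 CPM with DOX and RepSox, 3140 ± 231 CPM with DOX and DMSO, 5853 ± 145 CPM with RepSox alone and 5329 ± 155 CPM with DMSO alone (SD, n = 3 each). In the cells given DOX and DMSO it was 3052, 3403 and 2966 CPM, and replicate 2 was the highest of the 3. For 38 of 39 genes the mean was lowest, of the 4 HT-29 groups, with DOX and DMSO. The exception was CCNE2, lowest with RepSox alone. The mean was highest with RepSox alone for 27 genes, with DOX and RepSox for 8 and with DMSO alone for 4.

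**Figure D1:**
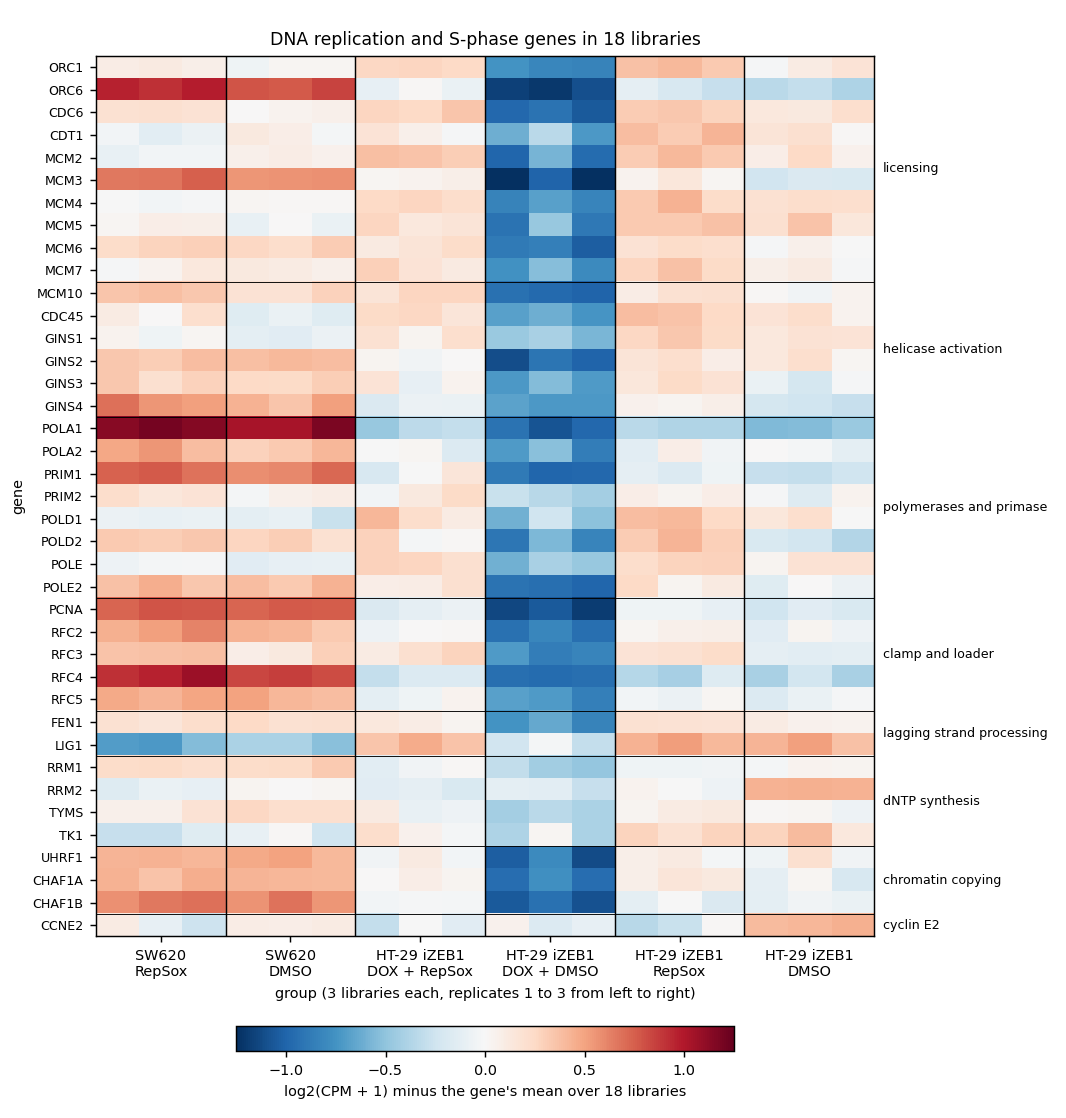
Level of each of the 39 genes (rows, by role) in each of the 18 libraries (columns, 3 per group), as log2(CPM + 1) minus the gene's mean over the 18 libraries (red above, blue below). The 3 libraries with DOX and DMSO are the blue block, while RRM2 and CCNE2 are reddest with DMSO alone among the HT-29 groups.

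With DOX, in DMSO, all 39 genes were called lower. Over all 16978 genes tested, 21.1% were called lower and 19.2% higher. The members' median log2 fold change was -0.71, against a median of 0.0020 over all genes, and ranged from -1.16 (GINS2) to -0.31 (PRIM2). Of the 39, 3 fell at least 2-fold. With RepSox in the DOX-treated cells, 37 of 39 genes rose and none fell, where 26.8% of all genes were called higher and 25.5% lower. Their median log2 fold change was 0.88, against -0.0082 over all genes, and 12 rose at least 2-fold. For TK1, which was called, the libraries of the groups overlapped. RRM2 and CCNE2 were not called. These comparisons share the 3 libraries with DOX and DMSO, so their values are given side by side.

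**Figure D2:**
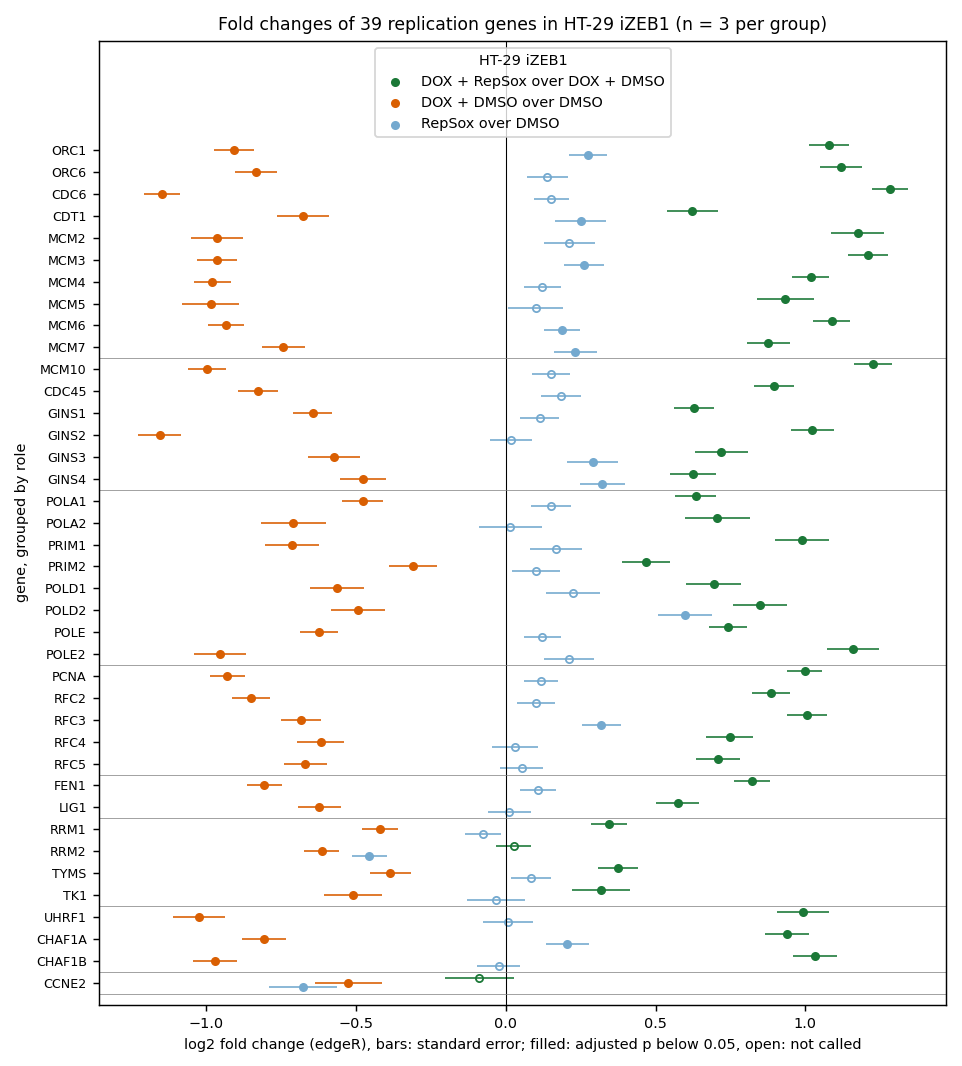
Log2 fold change of each gene (rows, grouped by role) in 3 comparisons within HT-29 iZEB1, with standard errors and n = 3 libraries per group. Filled points passed an adjusted p below 0.05 and open points did not. All 39 points for DOX and DMSO over DMSO lie left of 0, and 37 filled points for DOX and RepSox over DOX and DMSO lie right of it.

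All 10 licensing genes fell with DOX (median log2 fold change -0.95) and all 10 rose with RepSox in DOX-treated cells (median 1.08). CDC6, the ATPase that loads the helicase ring together with ORC, had 126, 124 and 133 CPM with DOX and RepSox, 52.1, 54.3 and 49.6 CPM with DOX and DMSO, 129.6, 132 and 126 CPM with RepSox alone, and 114, 114 and 120.0 CPM with DMSO alone. Its libraries with DOX and DMSO lay at less than 55 CPM, below every library of the other groups. CDC6 was 2.22-fold lower with DOX and DMSO than with DMSO alone (log2 -1.15 ± 0.059 SE, adjusted p = 2.13e-11) and 2.43-fold higher with DOX and RepSox than with DOX and DMSO (log2 1.28 ± 0.06, adjusted p = 4.83e-12). The ring subunits MCM2 to MCM7 all fell with DOX, with log2 fold changes between -0.99 for MCM5 and -0.74 for MCM7. MCM3 had 371, 376 and 383 CPM with DOX and RepSox, 152, 181 and 153 CPM with DOX and DMSO, 376, 401 and 370.0 CPM with RepSox alone, and 309.6, 322 and 319.8 CPM with DMSO alone. MCM2 had 270.0, 267 and 258 CPM with DOX and RepSox, 104, 139 and 107 CPM with DOX and DMSO, 259, 276 and 261 CPM with RepSox alone, and 221, 247 and 216 CPM with DMSO alone. Both had their lowest libraries with DOX and DMSO, and replicate 2 of that group was above the other 2. Under RepSox in DOX-treated cells MCM3 rose by log2 1.21 ± 0.067 (adjusted p = 5.09e-11) and MCM2 by 1.17 ± 0.088 (adjusted p = 2.49e-09), while MCM7 rose by 0.88 ± 0.072.

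The origin recognition subunits ORC1 and ORC6 were also lowest with DOX and DMSO. ORC1 had 52.9, 53.4 and 52.8 CPM with DOX and RepSox, 25.9, 24.5 and 24.3 CPM with DOX and DMSO, 57.1, 58.6 and 55.5 CPM with RepSox alone, and 43.6, 47.3 and 49.9 CPM with DMSO alone. ORC6 had 47.8, 51.8 and 48.4 CPM with DOX and RepSox, 22.4, 21.8 and 23.5 CPM with DOX and DMSO, 47.4, 44.7 and 42 CPM with RepSox alone, and 40.4, 41.6 and 39.2 CPM with DMSO alone. Neither gene's libraries with DOX and DMSO reached 26 CPM, and no library of the other HT-29 groups was below 39 CPM. CDT1, which brings the MCM ring to ORC and CDC6, changed least in this role, with log2 fold changes of -0.68 ± 0.087 with DOX (adjusted p = 4.41e-06) and 0.62 ± 0.087 with RepSox in DOX-treated cells (adjusted p = 7.18e-06). Its libraries had 38.8, 47.2 and 36.1 CPM with DOX and DMSO, against 66.8, 68.8 and 60.3 CPM with DMSO alone.

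All 6 genes of helicase activation fell with DOX (median log2 fold change -0.74) and rose with RepSox in DOX-treated cells (median 0.81). GINS2, a subunit of the GINS complex, had 56.5, 53.8 and 55.7 CPM with DOX and RepSox, 25, 29 and 27.1 CPM with DOX and DMSO, 61.8, 64.3 and 58.6 CPM with RepSox alone, and 60.8, 64.3 and 56.4 CPM with DMSO alone. It had the largest fall of the 39 genes, 2.23-fold (log2 -1.16 ± 0.072, adjusted p = 3.2e-10), and rose 2.03-fold with RepSox in DOX-treated cells (adjusted p = 1.27e-09). MCM10, needed to start unwinding, had 55.4, 59.9 and 59.9 CPM with DOX and RepSox, 25.4, 24.7 and 24.3 CPM with DOX and DMSO, 52.8, 56.6 and 57 CPM with RepSox alone, and 50.1, 48.1 and 50.9 CPM with DMSO alone. Its libraries with DOX and DMSO stayed within 24.3 to 25.4 CPM, and it rose by log2 1.23 ± 0.065 with RepSox (adjusted p = 2.67e-11). The fold changes of the 4 GINS subunits, which form 1 complex, differed in size, and these differences were not tested. The log2 fold change with DOX was -0.65 for GINS1, -1.16 for GINS2, -0.57 for GINS3 and -0.48 for GINS4. CDC45, the partner of GINS in the helicase, fell 1.78-fold with DOX (log2 -0.83 ± 0.067, adjusted p = 1.3e-08).

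Of the 8 polymerase and primase genes, all fell with DOX (median log2 -0.59) and all rose with RepSox in DOX-treated cells (median 0.72). POLE2, the second subunit of polymerase ε, fell most, with 8.58, 8.46 and 8.18 CPM with DOX and DMSO against 15.4, 17.3 and 16.3 CPM with DMSO alone (log2 -0.95 ± 0.087, adjusted p = 6.41e-08). PRIM2, the large primase subunit, fell least of all 39 genes, with 31.9, 30.4 and 28.6 CPM against 38.3, 34.6 and 40.1 CPM with DMSO alone (log2 -0.31 ± 0.08, adjusted p = 0.00438). Its catalytic partner PRIM1 fell as well (log2 -0.71 ± 0.091, adjusted p = 4.15e-06), and the difference between the partners was not tested. POLA1 and POLE, the catalytic subunits of polymerases α and ε, fell, with log2 fold changes of -0.48 ± 0.068 and -0.62 ± 0.063. POLD2, an accessory subunit of polymerase δ, was the only 1 of these 8 genes also called higher with RepSox alone. It had 320.3, 257 and 264 CPM with DOX and RepSox, 140.0, 177 and 148 CPM with DOX and DMSO, 326, 353 and 322 CPM with RepSox alone, and 230.2, 224 and 203 CPM with DMSO alone. With RepSox alone it was 1.51-fold higher than with DMSO alone (log2 0.60 ± 0.09, adjusted p = 8.3e-05), the largest rise among the members in that comparison.

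PCNA and the 4 RFC subunits among the members all fell with DOX (median log2 -0.68). All rose with RepSox in DOX-treated cells (median 0.89). PCNA, the clamp that tethers the polymerases to DNA, had 312, 327 and 336 CPM with DOX and RepSox, 160.1, 170.2 and 155 CPM with DOX and DMSO, 339.9, 341 and 329.8 CPM with RepSox alone, and 297, 321 and 311 CPM with DMSO alone. The libraries with DOX and DMSO were separated from all others by more than 125 CPM. PCNA fell 1.91-fold with DOX (log2 -0.93 ± 0.058, adjusted p = 3.19e-10) and rose 2-fold with RepSox in DOX-treated cells (log2 1.00 ± 0.058, adjusted p = 9.43e-11). Of these 4 subunits RFC2 fell most, with a log2 fold change of -0.85 ± 0.064, and RFC4 least, with -0.62 ± 0.078. RFC1, the loader subunit outside the members, was not called with DOX (log2 -0.15) but rose with RepSox in DOX-treated cells (log2 0.46). FEN1 and LIG1, which trim and join Okazaki fragments, fell with DOX, with log2 fold changes of -0.81 ± 0.059 and -0.62 ± 0.072, and rose with RepSox in DOX-treated cells, by 0.82 ± 0.059 and 0.57 ± 0.072. UHRF1, which maintains DNA methylation on copied DNA, and CHAF1A and CHAF1B, which place histones on it, fell with DOX, with log2 fold changes of -1.03, -0.81 and -0.97. They rose by 0.99, 0.94 and 1.03 with RepSox in DOX-treated cells.

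The nucleotide synthesis genes RRM1, RRM2, TYMS and TK1 had a median log2 fold change of -0.47 with DOX and 0.33 with RepSox in DOX-treated cells. RRM2, the small subunit of ribonucleotide reductase and its regulated part in S phase, had 226, 231 and 219 CPM with DOX and RepSox, 228, 227 and 204 CPM with DOX and DMSO, 256, 248 and 238 CPM with RepSox alone, and 336, 339 and 338 CPM with DMSO alone. Its libraries with DMSO alone were above all others, and those of the other 3 groups lay together between 204 and 256 CPM. RRM2 fell with DOX (log2 -0.62 ± 0.059, adjusted p = 1.06e-07), fell with RepSox alone (log2 -0.46 ± 0.058, adjusted p = 1.56e-05), and was not called for RepSox in DOX-treated cells (log2 0.026 ± 0.058, adjusted p = 0.729). RRM1, the large subunit of the same enzyme, rose by log2 0.34 ± 0.06 with RepSox in DOX-treated cells (adjusted p = 9.67e-05). TK1, thymidine kinase of the salvage route, had 248, 221 and 209 CPM with DOX and RepSox, 162, 216 and 162 CPM with DOX and DMSO, 258, 242 and 259 CPM with RepSox alone, and 258, 280.3 and 234 CPM with DMSO alone. Replicate 2 with DOX and DMSO lay within the range of the libraries with DOX and RepSox. TK1 rose by log2 0.32 ± 0.097 with RepSox (adjusted p = 0.0103), and this call was lost without replicate 1 or replicate 3 of the cells given DOX and DMSO. TYMS, thymidylate synthase, fell with DOX (log2 -0.39 ± 0.067) and rose with RepSox in DOX-treated cells (log2 0.37 ± 0.067), with 39.2% of its exon bases shared with ENOSF1 on the opposite strand.

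CCNE2, the gene of cyclin E2, which activates CDK2 at the entry to S phase, had 7.59, 9.59 and 8.61 CPM with DOX and RepSox, 10, 8.39 and 8.86 CPM with DOX and DMSO, 7.32, 7.74 and 9.68 CPM with RepSox alone, and 12.9, 13.1 and 13.4 CPM with DMSO alone. The 3 libraries with DMSO alone were the highest, and the other 3 groups overlapped. CCNE2 fell with DOX (log2 -0.53 ± 0.11, adjusted p = 0.000982) and with RepSox alone (log2 -0.68 ± 0.11, adjusted p = 0.000255), and was not called for RepSox in DOX-treated cells (log2 -0.089 ± 0.12, adjusted p = 0.542). INTS8, on the opposite strand, shares 37.0% of the exon bases of CCNE2 and had 794% of its counts. The strand setting of the counting is not given in the sources used here, so reads of such partners cannot be told apart. In all, 14 members share exon bases with a gene on the opposite strand and 6 with a gene on the same strand, and in 10 an overlapping gene had over 5% of the member's counts. Counts assigned to annotated pseudogene copies came to at most 0.060% of a member's own.

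**Figure D3:**
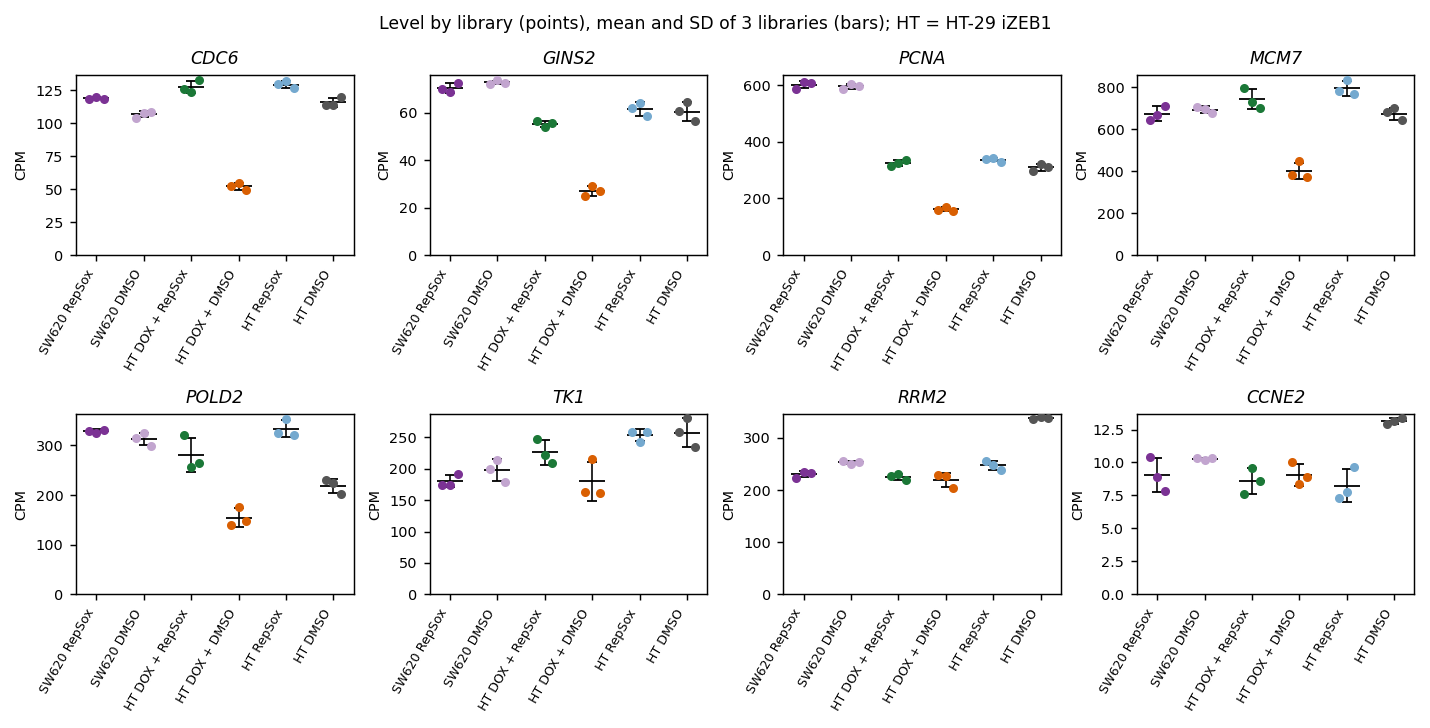
Level in CPM (vertical axes, from 0) of 8 members in each of the 6 groups, with a point for each library and bars for mean and SD (n = 3). CDC6, GINS2, PCNA and MCM7 have their lowest points with DOX and DMSO, POLD2 also differs between RepSox alone and DMSO alone, and RRM2 and CCNE2 are highest with DMSO alone among the HT-29 groups.

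Whether the response to DOX differed between RepSox and DMSO was tested with an interaction over the 4 HT-29 groups. The DOX response was less negative under RepSox for 37 of 39 genes, where 13.0% of all genes were called in that direction and 9.61% in the other. The median difference was 0.71 in log2. CDC6 had the largest, 1.13 ± 0.083 (adjusted p = 1.34e-08), and POLD2 (0.25 ± 0.13, adjusted p = 0.179) and TK1 (0.35 ± 0.14, adjusted p = 0.0756) were not called. ZEB1 itself moved in the same comparisons. It was 23.8-fold lower with DOX and RepSox than with DOX and DMSO (adjusted p = 4.02e-16), and its part in the replication genes' change was not tested.

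Under RepSox, DOX left no member called. With DOX and RepSox against RepSox alone, 0 of 39 genes were called higher and 0 lower by edgeR, where 0.0942% and 0.383% of all genes were. The median log2 fold change was -0.049, and the largest in size was that of CDT1 (-0.30 ± 0.085, adjusted p = 0.137). At an unadjusted p below 0.05, 1 member was higher (ORC6) and 5 were lower (CDT1, GINS2, GINS4, POLD2 and RRM2). DESeq2 called 1 lower, CDT1, and edgeR without replicate 1 of the cells given DOX and RepSox called 2 lower, CDT1 and POLD2. Without that library 1670 of 17445 genes were called in all, and without any filter 584 of 32801, against 16 higher and 65 lower of 16978 with all libraries. The standard errors were 0.057 to 0.12 in log2, so small differences are not excluded. ZEB1 was still 2.98-fold higher in that comparison (adjusted p = 1.37e-07), at 16 ± 1.39 CPM with DOX and RepSox against 5.38 ± 0.347 CPM with RepSox alone.

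Against untreated cells, 6 members were higher and 2 lower with DOX and RepSox, where 12.6% and 13.6% of all genes were called. The share of members called higher was near that background, and the share called lower was below it. POLD2 (0.35 ± 0.09), RFC3 (0.32 ± 0.065), ORC6 (0.28 ± 0.068), PRIM1 (0.27 ± 0.088), MCM3 (0.24 ± 0.066) and MCM10 (0.23 ± 0.063) were higher in log2. RRM2 (-0.59 ± 0.059, adjusted p = 6.68e-07) and CCNE2 (-0.61 ± 0.11, adjusted p = 0.000542) were lower.

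With RepSox alone against DMSO alone in HT-29 iZEB1, 10 members rose and 2 fell, where 12.5% and 12.8% of all genes were called. The 10 were POLD2, GINS4 (log2 0.32 ± 0.075), RFC3 (0.32 ± 0.065), GINS3 (0.29 ± 0.086), ORC1 (0.27 ± 0.065), MCM3 (0.26 ± 0.066), CDT1 (0.25 ± 0.085), MCM7 (0.23 ± 0.071), CHAF1A (0.20 ± 0.072) and MCM6 (0.19 ± 0.059). RRM2 and CCNE2 were the 2 that fell. The median of the 39 was 0.12, against -0.0076 over all genes. The count of rises was 6 without replicate 1 or replicate 3 of DMSO alone or without replicate 2 of RepSox alone, and 17 in a fit of these 2 groups only. Across comparisons, 21 members fell with DOX, rose with RepSox in DOX-treated cells and were called neither for RepSox alone nor for RepSox in SW620. The fall and the rise share the libraries with DOX and DMSO. The share of all genes with this pattern was not counted, so the count describes the members only.

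Other replication genes moved mostly in the same directions, with smaller medians. Of 47 other replication genes, 35 fell and 1 rose with DOX (median log2 -0.45), and 37 rose and 1 fell with RepSox in DOX-treated cells (median 0.55). Over all genes, 21.1% were called lower and 19.2% higher with DOX. With RepSox in DOX-treated cells 26.8% were called higher and 25.5% lower. DSCC1, of the clamp loader used in sister chromatid cohesion, averaged 118 ± 4.22 CPM with DOX and RepSox, 58 ± 3.73 CPM with DOX and DMSO and 112 ± 2.89 CPM with DMSO alone (SD, n = 3). It had log2 fold changes of -0.94 ± 0.062 with DOX and 1.02 ± 0.062 with RepSox in DOX-treated cells. CLSPN, the checkpoint mediator claspin, fell with DOX (log2 -0.78 ± 0.067). POLD4, the smallest subunit of polymerase δ, went the other way, with 5.33 ± 0.657 CPM with DOX and RepSox, 19 ± 1.52 CPM with DOX and DMSO and 11.5 ± 1.83 CPM with DMSO alone. It rose with DOX (log2 0.72 ± 0.13, adjusted p = 0.000133) and fell with RepSox in DOX-treated cells (log2 -1.84 ± 0.13, adjusted p = 1.92e-09).

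Of 23 genes of nucleotide supply, 17 fell and 2 rose with DOX (median log2 -0.48), where 21.1% and 19.2% of all genes were called. With RepSox in DOX-treated cells 17 rose and 2 fell (median 0.66), where 26.8% and 25.5% of all genes were called. DCTPP1, a dCTP pyrophosphatase, and CTPS1, a CTP synthase, fell with DOX, with log2 fold changes of -0.98 ± 0.08 and -0.83 ± 0.067. RRM2B, the small ribonucleotide reductase subunit that p53 induces, had the opposite direction to RRM2 with DOX in DMSO. Unlike RRM2, it was also called with RepSox in DOX-treated cells, where it fell (log2 -0.96). It averaged 34.6 ± 1.65 CPM with DOX and RepSox, 67.1 ± 9.07 CPM with DOX and DMSO and 40.1 ± 1.06 CPM with DMSO alone, and rose by log2 0.75 ± 0.082 with DOX (adjusted p = 7.07e-07).

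Of 32 regulators of the step from G1 to S phase that were tested (33 listed), 17 fell and 6 rose with DOX. Over all genes 21.1% and 19.2% were called. With RepSox in DOX-treated cells 17 rose and 8 fell, where 26.8% and 25.5% of all genes were called. The 6 rises with DOX and the 8 falls with RepSox were near these shares. E2F1, an activator of S-phase genes, averaged 84.5 ± 4.79 CPM with DOX and RepSox, 46.4 ± 4.38 CPM with DOX and DMSO and 90.8 ± 12.1 CPM with DMSO alone, and fell with DOX (log2 -0.96 ± 0.087, adjusted p = 5.71e-08). CDC25A, the phosphatase that activates CDK2, fell with DOX (log2 -1.06 ± 0.07) and rose with RepSox in DOX-treated cells (log2 1.15 ± 0.07). CCNE1, the gene of cyclin E1, fell with DOX (log2 -0.73 ± 0.086). CDKN1C, an inhibitor of cyclin-dependent kinases, averaged 7.54 ± 0.752 CPM with DOX and RepSox, 23.1 ± 1.77 CPM with DOX and DMSO and 5.03 ± 0.486 CPM with DMSO alone. It rose 4.6-fold with DOX (adjusted p = 8.18e-11) and fell 3.08-fold with RepSox in DOX-treated cells (adjusted p = 2.07e-09). The inhibitors CDKN1A and CDKN2C fell, with log2 fold changes of -1.59 ± 0.19 and -1.19 ± 0.12 with RepSox in DOX-treated cells and -0.96 ± 0.19 and -0.88 ± 0.13 with RepSox alone.

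Mitosis genes had smaller median changes. Of 32, 11 fell and none rose with DOX (median log2 -0.15), where 21.1% and 19.2% of all genes were called. With RepSox in DOX-treated cells 8 rose and 3 fell (median 0.096), where 26.8% and 25.5% of all genes were called. The 8 rises were near that share. Their summed level was 4615 ± 237 CPM with DOX and RepSox, 4291 ± 145 CPM with DOX and DMSO, 4365 ± 36.1 CPM with RepSox alone and 4637 ± 27.0 CPM with DMSO alone. With RepSox alone, 2 rose and 6 fell (median -0.11), where 12.5% and 12.8% of all genes were called. MAD2L1, of the spindle checkpoint, fell most with DOX (log2 -0.44 ± 0.066), and CDK1, the kinase that drives entry into mitosis, fell as well (log2 -0.30 ± 0.065, adjusted p = 0.000931). The difference between the lists was not tested.

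**Figure D4:**
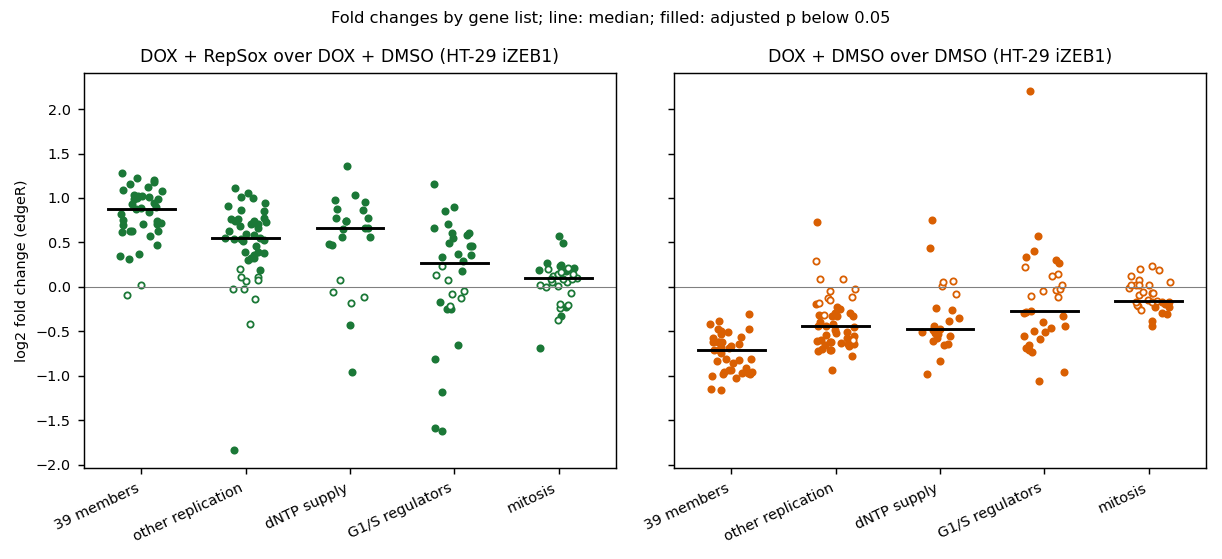
Log2 fold change of every tested gene of 5 lists (points, with lines at the medians) in HT-29 iZEB1, for DOX and RepSox over DOX and DMSO (left) and DOX and DMSO over DMSO (right). Filled points passed an adjusted p below 0.05. The medians are 0.88 and -0.71 for the 39 members and 0.096 and -0.15 for the mitosis genes.

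In SW620 the same genes changed little with RepSox. Their summed level was 6146 ± 113 CPM with RepSox and 6080 ± 33.4 CPM with DMSO (SD, n = 3 each). Of 39 genes, 6 rose and 3 fell, where 10.2% and 9.24% of all genes were called, and the median log2 fold change was 0.040. CDC45 had 77.1, 72 and 83.2 CPM with RepSox against 64.5, 67.5 and 64.6 CPM with DMSO (log2 0.24 ± 0.055, adjusted p = 0.00242), and its libraries did not overlap. The other rises were those of RFC3 (0.20 ± 0.057), ORC6 (0.16 ± 0.048), CDC6 (0.16 ± 0.046), RFC4 (0.15 ± 0.05) and MCM3 (0.13 ± 0.041). LIG1 had 66.2, 65.7 and 74.1 CPM with RepSox against 82.4, 81.9 and 75.2 CPM with DMSO (log2 -0.22 ± 0.055, adjusted p = 0.00631). RRM2 (-0.14 ± 0.042) and MCM2 (-0.13 ± 0.042) also fell. The counts rested on single libraries. Rises and falls numbered 1 and 1 without replicate 1 of DMSO, 2 and 1 without replicate 2, and 11 and 5 without replicate 3. They numbered 3 and 0 without replicate 1 of RepSox and 1 and 1 without replicate 2, and 2 genes rose without replicate 3. Scaling by library totals alone gave 1 rise and 6 falls. ZEB1 was not called in SW620 (log2 0.14 ± 0.078, adjusted p = 0.234).

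The response to RepSox was set against that of HT-29 iZEB1 without DOX in a test of the difference between the lines. It differed for 5 of 39 genes, 1 higher and 4 lower in SW620, where 5.39% and 4.99% of all genes were called. POLD2 (-0.54 ± 0.11, adjusted p = 0.00198), CDT1 (-0.40 ± 0.11, adjusted p = 0.0184), MCM2 (-0.34 ± 0.11, adjusted p = 0.0383) and MCM7 (-0.28 ± 0.091, adjusted p = 0.0493) had a lower log2 response in SW620. RRM2 had a higher one (0.31 ± 0.072, adjusted p = 0.00495), since it fell less in SW620. Fewer were called lower without single libraries, and the calls lost were those of MCM2, MCM7 or CDT1. The count was 1 without replicate 3 of HT-29 with DMSO, replicate 1 of SW620 with DMSO or replicate 2 of SW620 with RepSox. It was 2 without replicate 1 of HT-29 with DMSO, replicate 1 or 2 of HT-29 with RepSox, replicate 2 or 3 of SW620 with DMSO or replicate 1 of SW620 with RepSox. CCNE2 joined as a higher call without replicate 3 of HT-29 with RepSox or replicate 3 of SW620 with RepSox, which made 2.

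**Figure D5:**
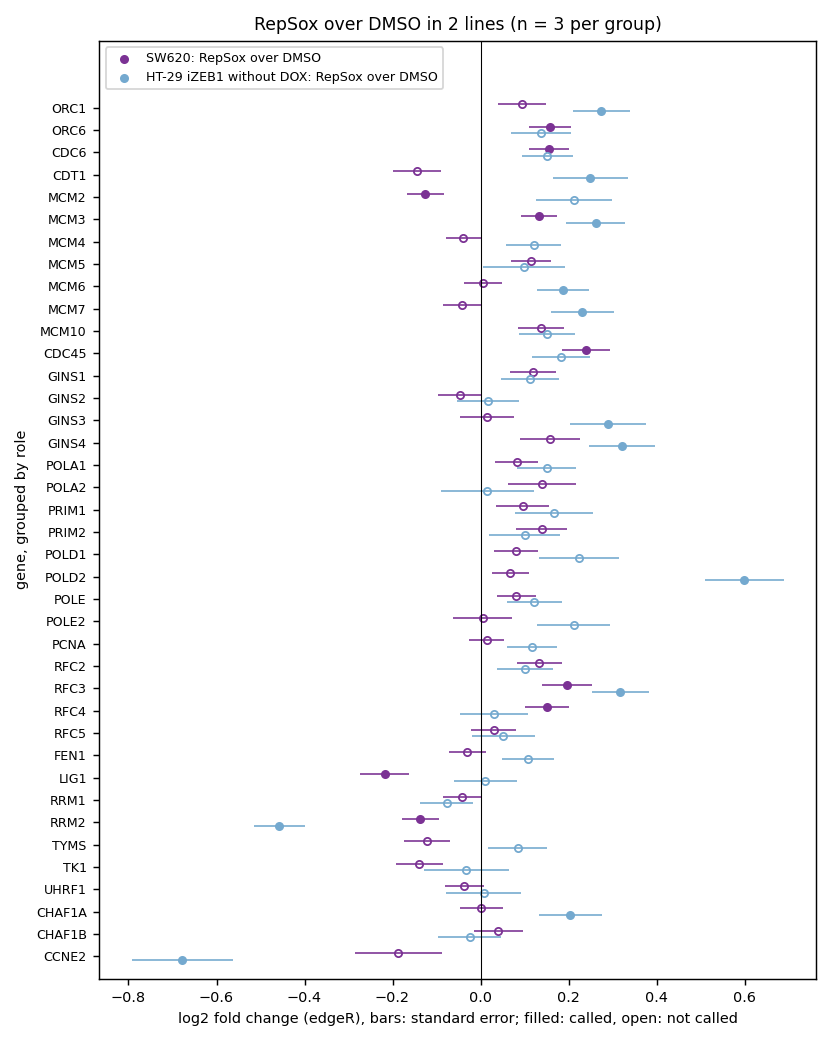
Log2 fold change of each gene for RepSox over DMSO in SW620 and in HT-29 iZEB1 without DOX, with standard errors (n = 3 per group). Filled points were called. POLD2, RRM2 and CCNE2 lie farthest from 0 in HT-29 iZEB1, and no point of SW620 passes 0.25 in size.

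Between the untreated lines, SW620 had 23 members higher and 11 lower than HT-29 iZEB1, where 40.1% and 36.5% of all genes were called. Scaling by library totals alone moved the median of all genes for this comparison from 0.060 to 0.18 in log2, and the count of lower members to 6. POLA1, the catalytic subunit of polymerase α, had 149, 148 and 165 CPM in SW620 and 48.8, 49.2 and 52.3 CPM in HT-29 iZEB1, and was 3.07-fold higher (log2 1.62 ± 0.061, adjusted p = 6.38e-18). RFC4 was 2.3-fold higher (1.20 ± 0.069) and ORC6 2.23-fold higher (1.16 ± 0.059). LIG1 was 1.84-fold lower (-0.88 ± 0.07, adjusted p = 2.1e-11). PCNA and all 4 RFC subunits among the members were higher in SW620, while the MCM ring subunits differed in direction. MCM3 and MCM6 were higher, MCM4 and MCM5 lower, and MCM2 and MCM7 were not called.

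Per kilobase of annotated exon, the levels of the members spanned a wide range in untreated HT-29 iZEB1. PCNA stood highest, at 210.3 ± 8.15 CPM per kb, followed by MCM7 at 153.8 ± 6.58 and TK1 at 138.3 ± 12.5 (SD, n = 3 each). The ranges of MCM7 and TK1 overlap within their SDs. POLA2 was lowest, at 2.07 ± 0.10, below GINS4 at 2.74 ± 0.071 and CCNE2 at 2.99 ± 0.055 CPM per kb. POLA2 shares 35.1% of its exon bases with another gene on the same strand. GINS4 and CCNE2 share 21.2% and 37.0% with a gene on the opposite strand. The effect of these overlaps on the levels was not tested. By this measure the ring subunits had 86.9 CPM per kb for MCM3, 77.0 for MCM4, 48.2 for MCM6, 46.5 for MCM2 and 21.5 for MCM5. The lengths merge all annotated exons of a gene, with 7338 bases for MCM5, 6973 for MCM4 and 3650 for MCM3. The annotation used for counting is not given, so the order of the members' levels depends on these lengths.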

How the data were processed

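RNA sequencing counts of 18 libraries in 6 groups of 3 were used, grouped by the labels. The deposited table holds whole-number read counts per gene symbol, made by the authors without normalisation. The submitters' processing notes name HISAT2 2.2.0, featureCounts 2.0.0, DESeq2 1.34.0, FastQC 0.11.9 and GRCh38.p13. The strand mode, other settings and gene annotation are not given in the sources used. Multi-mapped and overlapping reads may therefore have been lost or shared.

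Counts were tested with edgeR 4.0.16 in R 4.3.3, with TMM scaling, filterByExpr at a minimum count of 10 and glmQLFTest. Adjustment ran over all genes tested: 16978 in 12 HT-29 iZEB1 libraries (for comparisons within that line), 17147 in 6 SW620 libraries and 19107 in all 18 (for comparisons between the lines). The replicate spread (biological coefficient of variation) was 7.82%, 5.10% and 7.04%. Standard errors come from the unshrunken log2 fold change over the root of F. The test was checked on simulated data. No pair of replicates was within counting error of each other, so each counts as 1 library.

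Alternatives were RLE size factors, library totals alone, DESeq2 1.42.0, no filter, a minimum count of 50, the replicate number as a block, fits of the 2 groups compared alone, leaving out each library, and a promoter window of 150 bases. Any member could be named. Of other lists, up to 4 called genes with the largest change and at least 5 CPM in the higher group could be named. ZEB1 is named as the induced gene, and RFC1 as the RFC subunit outside the members. A gene given in 1 comparison by this rule may be named again in another. Members and lists were chosen with earlier results of these data known. Gene positions and exon lengths are from GENCODE 29, matched by symbol.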

Additional observations from a re-analysis of the deposited data

Results flagged for a closer look

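The response to DOX differed between RepSox and DMSO for 37 of the 39 replication genes by the interaction test, the exceptions being POLD2 and TK1. For all 39 the interaction was positive. The largest was that of CDC6, at log2 1.13.

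The response to RepSox differed between SW620 and HT-29 iZEB1 without DOX for 5 genes, by a test of the difference. It was lower in SW620 for POLD2 (log2 difference -0.54), CDT1 (-0.40), MCM2 (-0.34) and MCM7 (-0.28), and higher for RRM2 (0.31). Over all genes 4.99% were called lower and 5.39% higher. The calls of MCM2 and MCM7 were lost with RLE size factors and in most fits that left out 1 library. That of CDT1 was lost in some of those fits. POLD2 rose by log2 0.60 in HT-29 iZEB1 with RepSox and had 0.068 in SW620.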

How the results depend on the processing

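With DOX in DMSO, 39 members were lower under every alternative, and with RepSox in DOX-treated cells 36 to 37 were higher. Of the called members' fold changes under alternatives, 2360 kept their direction and call, 151 kept the direction and lost the call, and 1 reversed: CDC6 between the lines was 0.0064 with library totals alone. With library totals alone the share of higher calls among all called genes was 59.5% for DOX in DMSO. For RepSox without DOX, 17 members were higher in a fit of only the 2 groups compared. For DOX in RepSox, 2 were lower with no filter and 1 with DESeq2. For RepSox in SW620, library totals alone gave 1 higher and 6 lower, and the replicate block gave 1 lower. For SW620 against HT-29, 6 were lower with library totals alone. For the difference in response between the lines, 2 were higher and 2 lower with RLE size factors, and 2 were higher with a minimum count of 50 or with DESeq2. Leaving out each replicate gave 6 to 10 higher for RepSox without DOX, 0 to 2 lower for DOX in RepSox, 1 to 11 higher and 0 to 5 lower for RepSox in SW620, 33 to 38 higher for the interaction, and 1 to 2 higher and 1 to 4 lower for the difference in response. Replicate numbers did not pair the libraries. The correlation of deviations was -0.35 to 0.22 over 18 HT-29 pairs and -0.13 to -0.0023 over 3 SW620 pairs, and 5 of 12 and 0 of 6 libraries correlated best with their own number. With a promoter window of 150 bases before the start, 48.6% of member promoters and 7.49% of all held E2F letters. The causes of these shifts were not tested. Where no member was called, differences of several standard errors, which were 0.057 to 0.12 in log2, can go uncalled at this depth and spread, such as that of CDT1 (-0.30).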
